A study of Danio rerio with 4 samples.

Results

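The genes described here encode chromatin modifiers and remodellers, the enzymes that write or erase methyl and acetyl groups on histones and methyl groups on DNA, the bromodomain proteins that bind acetylated histones, and the ATPase complexes that move nucleosomes. Members were the 113 genes of the 25769 in the deposited table whose names, written in lower case, begin with kmt, kdm, setd, ezh, hdac, kat, brd, smarc, chd, dnmt or tet, with a number after kat, brd and chd. By prefix there were 20 kdm, 17 smarc, 13 hdac, 11 kmt, 11 chd, 10 setd, 10 kat, 10 brd, 7 dnmt, 2 ezh and 2 tet genes. The rule used names and no measured value. A prefix is a naming convention and not a test of function, and the names were not checked against protein sequences here.

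The data are bulk SLAM-seq of whole AB/TL zebrafish embryos that had been injected with 4-thiouridine (4sU) at the 1-cell stage. Embryos were collected at 1 hour post fertilization (hpf), before the main onset of zygotic transcription, and at a later stage that the labels give as 6 hpf and the study's methods as 4.8 hpf. The later stage is called 4.8 hpf below. At each stage there was 1 polyA+ library and 1 ribo-depleted library, which also differed in sequencing platform and layout, so that library type and platform cannot be told apart. The study pooled 25 embryos per sample, the series calls its 2 replicates per stage technical, and both stages were injected with 4sU, at 20 mM in the labels and 50 mM in the methods. Libraries without 4sU were not analysed here. 4sU enters RNA that is made after the injection, and treatment with iodoacetamide makes it read as C in place of T. The new-to-total ratio (NTR) of a gene is the estimated share of its RNA that was new. New RNA is given below as reads times NTR and stored RNA as reads times 1 minus NTR, both in reads per 1000000 library reads (RPM). Both are estimates. New RNA that the NTR misses is counted as stored, and how much it misses was not tested.

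The egg supplies the early embryo with RNA for much of its chromatin machinery, because transcription from the embryo's own genome begins in earnest only after a series of rapid cleavages. During the maternal-to-zygotic transition stored transcripts are cleared at different speeds while the zygotic genome starts to make its own. In zebrafish many genes have an a and a b copy from the genome duplication of the teleost ancestor, and the copies can divide the maternal and the zygotic supply between them.

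The libraries held 9058807 to 22521675 reads, with no replicate within a library type. The summed level of 7 maternal marker genes went from 5457 to 1925 RPM in the polyA+ libraries and from 3522 to 1410 RPM in the ribo-depleted libraries. Of these genes h1m held 3804 and 1389 RPM at 1 hpf, and ddx4 alone was higher later (310 to 526 and 93.9 to 153 RPM). The summed level of 4 zygotic marker genes went from 1.51 to 598 RPM and from 2.36 to 461 RPM. Markers of the enveloping layer (2467 and 1686 RPM) and of the yolk syncytial layer (372 and 368 RPM) were read at 4.8 hpf, so whole embryos of several cell types were compared, and fewer cells of a type and less RNA per cell cannot be told apart. Against library totals, the median of genes that averaged 100 reads or more over the stages was 0.38 lower on the log2 scale at 4.8 hpf in the ribo-depleted libraries, and after normalization by the trimmed mean of M values (TMM) 0.04 lower. In the polyA+ libraries both medians were near 0 (-0.06 and -0.09). A stage change of total or stored RPM in the ribo-depleted libraries is therefore about 0.34 lower on the log2 scale than its TMM counterpart.

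The 113 genes kept about the same share of the reads. They took 2.22% of the polyA+ reads at 1 hpf (95% Wilson interval 2.21% to 2.23%) and 2.03% at 4.8 hpf (2.02% to 2.03%). In the ribo-depleted libraries their share was 1.65% (1.65% to 1.66%) and 1.68% (1.68% to 1.69%). These intervals cover counting error only. A single gene, dnmt1, held 19.1% of the members' reads with polyA+ selection and 13.3% with ribo-depletion at 1 hpf. Without dnmt1 the members' summed RPM was 1.11 times its 1 hpf value in the polyA+ and 1.14 times in the ribo-depleted libraries (1.09 and 1.44 times with TMM).

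At 1 hpf almost none of this RNA was estimated as new, and at 4.8 hpf most of it was still estimated as stored. New RNA made up 0.0648% of the members' reads with polyA+ selection and 0.456% with ribo-depletion at 1 hpf, against 14.3% and 13.4% at 4.8 hpf. Over all genes of the same 4.8 hpf libraries it was 16.4% and 18.7%. The median member had an NTR of 11.1% (polyA+, 90 members with 100 reads or more) and of 12.3% (ribo-depleted, 97 members). All genes with that many reads had medians of 8.04% and 8.49%. The quartiles of the members were 4.10% and 22.8% in the polyA+ library and 4.29% and 20.1% in the ribo-depleted one, and those of all genes 1.76% and 25.9% and 1.87% and 26.0%. The members thus had a higher median and fewer genes at both ends.

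This was also seen in counts over the 90 members that reached 100 reads in both 4.8 hpf libraries. None of them had an NTR above 65% in both, against 5.18% of the 8932 genes that could be read this way. Above 50% in both were 5 members, or 5.56%, against 10.7% of all genes. Below 5% in both were 21 members, or 23.3%, against 34.1% of all genes, and 58 members, or 64.4%, lay from 5% to 65% in both, against 45.8%. The remaining 11 members fell on different sides of a threshold in the 2 libraries. The 23 other members had too few reads in at least 1 of the 4.8 hpf libraries, and 11 of these had fewer than 100 reads in all 4 libraries.

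**Figure D1:**
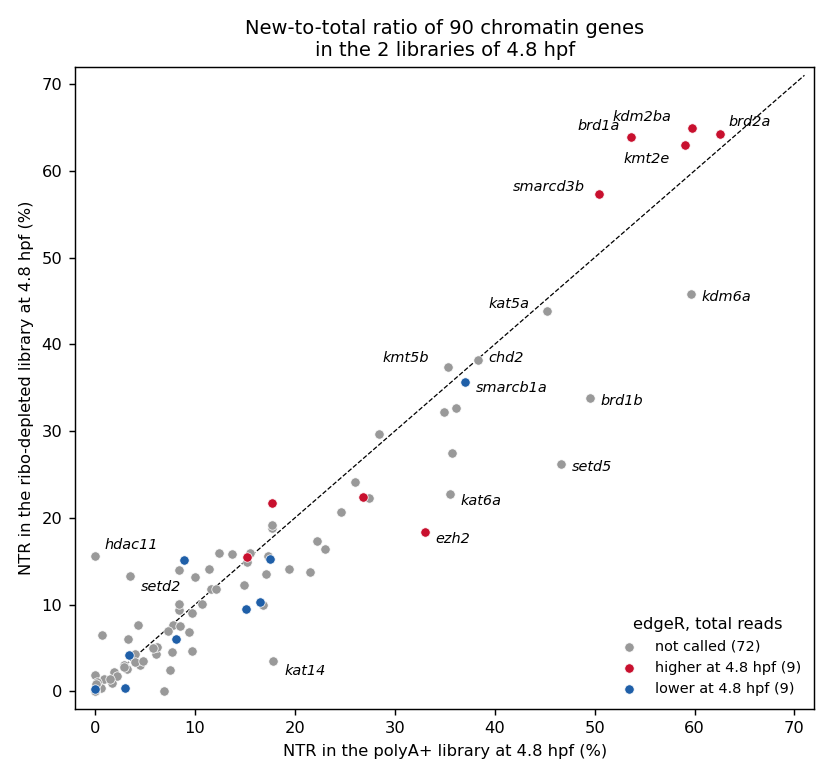
NTR of the 90 members that reached 100 reads in both libraries of 4.8 hpf, with the polyA+ library on the x axis and the ribo-depleted library on the y axis (percent), coloured by the edgeR call on total reads. The dashed line marks equal values. Most points lie near it, 5 genes (brd1a, brd2a, kdm2ba, kmt2e, smarcd3b) lie above 50% in both, and no gene lies above 65% in both.

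The libraries of both types gave similar NTRs. Across the 90 members Pearson's r was 0.943 and Spearman's rho 0.911, as a description over genes that share the same libraries and stage. The median absolute difference was 2.05 percentage points, and it was 2.51 points over all genes. The largest differences were in setd5 (46.6% in polyA+ and 26.3% in ribo-depleted), hdac11 (0% and 15.6%), brd1b (49.5% and 33.8%), ezh2 (33.0% and 18.4%) and kat14 (17.8% and 3.53%).

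Total reads were compared between the stages with edgeR's quasi-likelihood test across all genes, with library type as a covariate. Of the 111 members that could be tested, 12 were higher at 4.8 hpf, or 10.8%, against 18.3% of the 16315 genes tested. Another 10 were lower, or 9.01%, against 14.4% of all genes. All 12 were up and all 10 were down in both library types, with log2 changes of 1.17 to 2.57 and of -2.79 to -1.18. With library totals in place of TMM 16 members were lower, against 2511 of the 16315 genes tested. The gap in the lower calls thus depended on the scaling. The median log2 change was 0.30 over the members and 0.10 over all genes tested, and against library totals 0.15 and -0.05. The genes chd3 and tet1 had too few reads to be tested. The fit has 1 residual degree of freedom. Its p-values rest on the disagreement between polyA+ and ribo-depleted libraries about the stages, pooled across genes, and on no spread between batches of embryos. The SE of a gene is thus not its own spread between library types. Hdac8.1 (log2 change -2.01 in polyA+ and -2.04 in ribo-depleted) and kdm5bb (2.36 and 0.47) both had an SE of 0.53. The SE varied with read level, at 0.75 for chd7, the best read member at 4.8 hpf, 0.44 for kdm4aa and 0.83 for the rare ezh1. Members and all genes were not matched for read level in the shares above. Without the library type term only 1 higher and 0 lower calls were left (8 and 8 at an unadjusted p under 0.05). For a single gene, an exact two-sided permutation test of 2 libraries against 2 cannot go below a p of 0.3333.

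**Figure D2:**
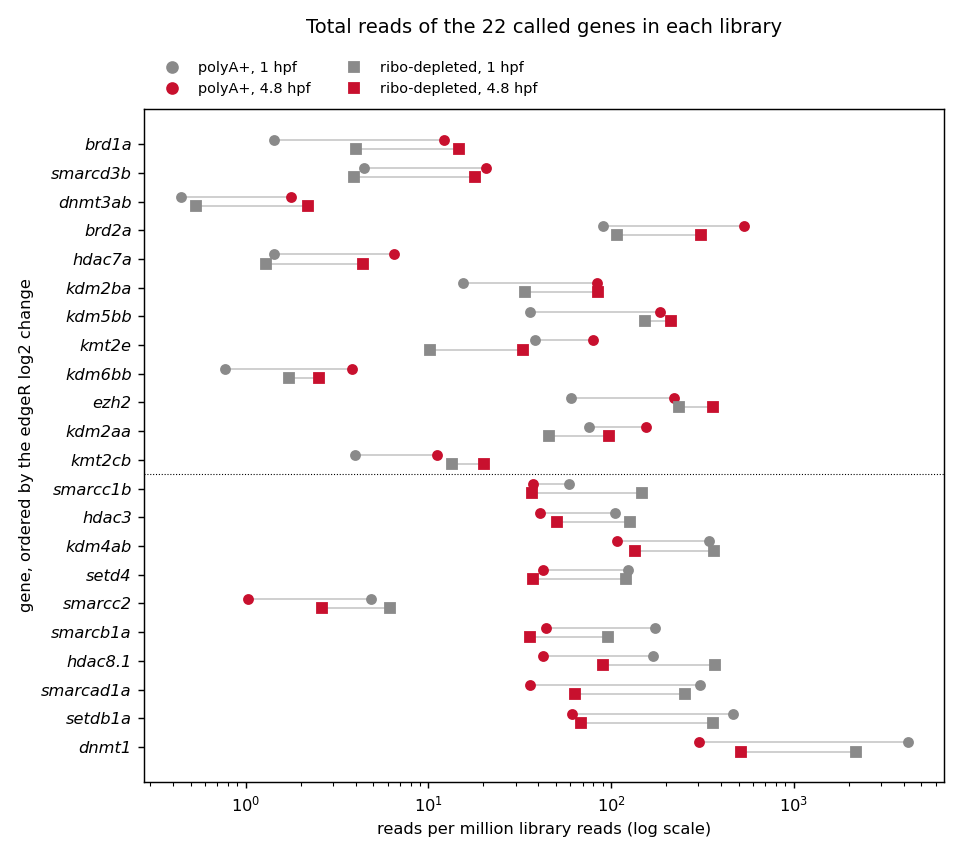
Total reads of the 22 members called by edgeR in each of the 4 libraries, in RPM on a log axis, with circles for polyA+ and squares for ribo-depleted libraries, grey for 1 hpf and red for 4.8 hpf. The genes above the dotted line were higher and those below it lower at 4.8 hpf, and within each library type every gene moved the way it was called.

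Among the DNA methyltransferases, 1 of 7 genes rose and 1 fell, and the fall of dnmt1 was the largest of all members called. Dnmt1, which copies methylation onto the new strand after replication, stood at 4230.3 RPM with polyA+ selection and 2201 RPM with ribo-depletion at 1 hpf, and at 305 and 517 RPM at 4.8 hpf. Both later values were far below both early ones. Its log2 change was -2.79 ± 0.89 (SE, edgeR adjusted p = 0.00794). Only 3.40% and 4.20% of what was left was new. Its T-to-C rate rested on a coverage of 52290 T bases in the polyA+ library at 4.8 hpf and was 0.526% there (95% Wilson interval 0.467% to 0.592%), against 0.204% (0.193% to 0.215%) at 1 hpf. In the ribo-depleted libraries the rate was 0.601% (0.573% to 0.629%) at 4.8 hpf, against 0.435% (0.425% to 0.445%) at 1 hpf. The change of total reads was unequal in the 2 library types, with a log2 ratio of 0.94 between polyA+ and ribo-depleted RPM at 1 hpf and of -0.76 at 4.8 hpf.

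The de novo methyltransferases of the dnmt3 group had a larger share of the family at 4.8 hpf. At 1 hpf dnmt1 made up 93.9% of the family's reads with polyA+ selection and 77.7% with ribo-depletion, and at 4.8 hpf 37.6% and 43.0%. The 6 other dnmt genes together went from 275 to 506 RPM in the polyA+ and from 631 to 683 RPM in the ribo-depleted libraries, and 19.0% and 18.3% of their reads were new at 4.8 hpf.

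Within that group the single genes differed. For dnmt3ba, the highest in NTR of the 5 dnmt genes with enough reads, the values were 104 and 119 RPM at 1 hpf and 186 and 235 RPM at 4.8 hpf (polyA+ first, here and below), with NTRs of 26.1% and 24.2% (log2 change 1.07 ± 0.52, adjusted p = 0.11). For dnmt3bb.2 they were 81.8 and 221 RPM and then 244 and 339 RPM, with NTRs of 17.7% and 18.9%. For dnmt3bb.3 they were 77.2 and 269 RPM and then 44.6 and 76.4 RPM, with NTRs of 6.09% and 4.37% (log2 change -1.15 ± 0.50, adjusted p = 0.06). None of these passed the threshold with edgeR, nor did dnmt3bb.1 at 9.60 to 26.4 RPM, whose NTR was 0% and 0.04%. The counts of dnmt3bb.1, dnmt3bb.2 and dnmt3bb.3 were fractional, as arise where reads that match several genes are shared out. With DESeq2 the adjusted p was 0.0376 for dnmt3ba, 0.0174 for dnmt3bb.2 and 0.0485 for dnmt3bb.3, and edgeR with library totals gave 0.0281 for dnmt3bb.3. The rare dnmt3ab rose from 0.442 and 0.533 RPM to 1.76 and 2.19 RPM (log2 change 2.20 ± 0.68, adjusted p = 0.00532), with too few reads for its NTR to be used and an adjusted p of 0.291 with DESeq2. The tet genes, whose proteins oxidise methylated cytosine, were barely read, with 0.505 to 1.21 RPM for tet3 and 0.0281 to 0.688 RPM for tet1.

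**Figure D3:**
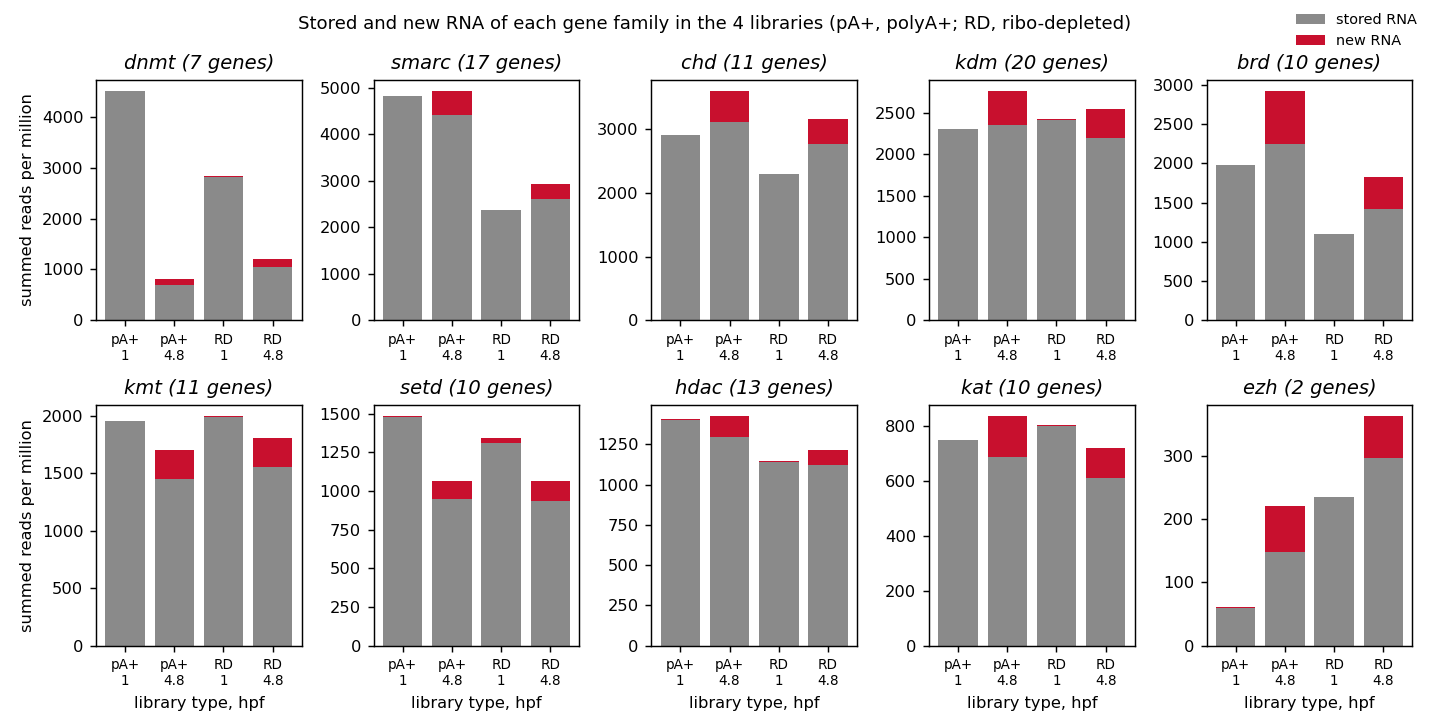
Summed stored (grey) and new (red) RNA of the families in the 4 libraries, in RPM on an axis that starts at 0 and differs between panels. The 2 tet genes, at most 1.62 RPM together, are left out. The dnmt bars shrink between the stages in both library types, the ezh bars grow, and red appears in every family at 4.8 hpf.

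The ezh genes encode the enzyme of Polycomb repressive complex 2, which methylates histone H3 at lysine 27. Nearly all of the family's reads were of ezh2, at 60.5 and 236 RPM at 1 hpf and 220 and 362 RPM at 4.8 hpf. It was higher at 4.8 hpf within each library type, while the polyA+ value at 4.8 hpf lay below the ribo-depleted value at 1 hpf. Ezh2 rose by 1.39 ± 0.55 on the log2 scale (adjusted p = 0.0395), and its NTR was 33.0% and 18.4%. The ezh2 reads estimated as stored also took a larger share of the library at 4.8 hpf, with log2 ratios of 1.30 and 0.33. How much of this was new RNA that the NTR missed was not tested. Ezh1 stayed under 1 RPM.

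Among the kmt genes, which are named as lysine methyltransferases, 2 of 11 rose and none fell with edgeR (1 lower at an unadjusted p under 0.05, 0 with DESeq2 and 2 with library totals in place of TMM). Kmt2e rose from 38.4 and 10.3 RPM to 79.6 and 33.1 RPM (log2 change 1.52 ± 0.46, adjusted p = 0.0044). The stages overlapped across library types, since the early polyA+ value lay above the late ribo-depleted one. It had the highest NTR of its family, 59.0% and 63.0%. The rise of kmt2cb, from 3.97 and 13.5 RPM to 11.1 and 20.2 RPM, was close to the threshold (log2 change 1.17 ± 0.48, adjusted p = 0.0478) and was lost under every alternative fit.

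The histone H3 lysine 4 methyltransferases kmt2ba and kmt2bb, copies of the same ancestral gene, differed. Kmt2ba had the most reads of the family at 1 hpf, 650 and 467 RPM, and 210 and 263 RPM at 4.8 hpf (log2 change -1.08 ± 0.62, adjusted p = 0.17, and 0.0403 with library totals), with NTRs of 17.1% and 13.6%. Kmt2bb stood at 105 and 146 RPM and then at 128 and 125 RPM, with NTRs of 28.4% and 29.6%. Of the enzymes that methylate histone H4 at lysine 20, kmt5aa, whose mammalian counterpart adds the first methyl group, was at 477 and 250 RPM and then at 523 and 409 RPM with an NTR of 1.47% and 1.38%. Kmt5b, whose counterpart adds further ones, was at 63.0 and 145 RPM and then at 75.6 and 86.1 RPM with an NTR of 35.3% and 37.3%. Both had a log2 change within 1 SE of 0 (0.57 ± 0.61 and -0.10 ± 0.48).

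Of the 10 setd genes, 2 fell and none rose with edgeR (0 higher at an unadjusted p under 0.05 and 0 with DESeq2). Setdb1a, which by its name is a copy of the H3 lysine 9 methyltransferase gene SETDB1, fell from 467 and 360.4 RPM to 61.3 and 68.5 RPM (log2 change -2.51 ± 0.58, adjusted p = 0.000117). All later values were far below the early ones. Its copy setdb1b stood at 267 and 253 RPM and then at 303 and 285 RPM (log2 change 0.33 ± 0.56, adjusted p = 0.69). Both copies had nearly the same NTR, 16.5% and 10.4% for setdb1a and 16.8% and 9.97% for setdb1b. Setd4 fell from 124 and 121 RPM to 42.6 and 37.5 RPM (log2 change -1.46 ± 0.48, adjusted p = 0.00966), with NTRs of 2.98% and 0.36%. Setd2, the enzyme of H3 lysine 36 trimethylation and the setd gene with the most reads at 1 hpf, was at 479 and 389 RPM and then at 458 and 497 RPM. Setd5 had the highest mean NTR of the family, 46.6% and 26.3%, at 22.2 to 61.4 RPM.

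Of the 20 kdm genes, which encode histone demethylases, 4 rose and 1 fell. Kdm2ba rose from 15.6 and 33.7 RPM to 83.5 and 84.5 RPM (log2 change 2.02 ± 0.47, adjusted p = 0.000136), with no overlap between the stages, and 59.8% and 64.9% of its RNA was new. In mammals KDM2B brings a variant of Polycomb repressive complex 1 to unmethylated CpG islands. Its copy kdm2bb went from 56.1 and 39.1 RPM to 23.8 and 27.4 RPM without passing the threshold (log2 change -0.72 ± 0.45, adjusted p = 0.22). Kdm2aa rose from 76.0 and 46.0 RPM to 156 and 98.0 RPM (log2 change 1.21 ± 0.49, adjusted p = 0.0414), and its adjusted p was 0.0598 with library totals in place of TMM. The copy with the most reads, kdm2ab, was at 394 and 368 RPM and then at 479 and 539 RPM with an NTR of 3.97% and 3.34%.

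The H3 lysine 4 demethylase gene kdm5bb rose from 36.2 and 154 RPM to 186 and 213 RPM (log2 change 1.56 ± 0.53, adjusted p = 0.014), with NTRs of 17.7% and 21.7%, while kdm5ba stood between 67.9 and 86.8 RPM in all 4 libraries. Of the H3 lysine 27 demethylase genes, kdm6bb rose from 0.773 and 1.73 RPM to 3.82 and 2.53 RPM (log2 change 1.44 ± 0.58, adjusted p = 0.0399), a call that no alternative fit made. The better read kdm6ba (72.4 to 225 RPM) and kdm6a (32.7 to 87.8 RPM) had NTRs of 36.1% and 32.6% and of 59.6% and 45.9%, and kdm6al 2.22% and 1.76%. Kdm4ab fell from 344 and 366 RPM to 108 and 135 RPM (log2 change -1.41 ± 0.56, adjusted p = 0.0383). Its copy kdm4aa, at 25.9 to 33.9 RPM, had a log2 change of 0.06 ± 0.44.

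Of the 13 hdac genes, the histone deacetylases, 1 rose and 2 fell. Hdac1, the catalytic subunit of several corepressor complexes, had the most reads of the family. Its mean NTR was the highest of the 7 hdac genes with enough reads for one. It stood at 940.5 and 463 RPM and then at 1186 and 896 RPM with NTRs of 9.67% and 9.05% (log2 change 0.80 ± 0.71, adjusted p = 0.41). Hdac3 fell from 106 and 127 RPM to 40.7 and 50.7 RPM (log2 change -1.20 ± 0.48, adjusted p = 0.0385). The gene named hdac8.1 fell from 170.1 and 370.3 RPM to 42.2 and 90.3 RPM (log2 change -1.87 ± 0.53, adjusted p = 0.00221), and its NTR was 0% and 0.26%, so that almost no new RNA of it was read. The gene named hdac8, a separate row of the table, stood between 40.0 and 57.3 RPM in all 4 libraries with an NTR of 0.01% and 1.86%. The class IIa gene hdac7a rose from 1.44 and 1.29 RPM to 6.46 and 4.38 RPM (log2 change 2.11 ± 0.55, adjusted p = 0.000737). With DESeq2 its adjusted p was 0.0784.

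None of the 10 kat genes, the histone acetyltransferases, passed the threshold in either direction with edgeR and TMM or with DESeq2, and 3 were lower and 0 higher at an unadjusted edgeR p under 0.05. With library totals in place of TMM, edgeR called kat14 (adjusted p = 0.0448) and kat6b (adjusted p = 0.0441) lower. Kat7b had the most reads, at 205 and 226 RPM and then at 333 and 270.2 RPM with NTRs of 17.7% and 19.2%. Kat8, the H4 lysine 16 acetyltransferase, was at 67.1 and 65.6 RPM and then at 34.0 and 35.4 RPM (log2 change -0.78 ± 0.45, adjusted p = 0.18), and 35.7% and 27.5% of its reads at 4.8 hpf were new. The highest NTR of the family was that of kat5a, 45.2% and 43.8%.

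Of the 10 brd genes, 2 rose and none fell with edgeR (0 lower at an unadjusted p under 0.05 and 0 with DESeq2), and 23.0% of the family's RNA was new with polyA+ selection and 22.4% with ribo-depletion. A single gene, brd2a, held 49.8% and 48.8% of that new RNA, and without it the shares were 14.1% and 13.8%. Brd2a, which encodes a BET protein that binds acetylated histones, rose from 90.7 and 108 RPM to 536 and 311 RPM (log2 change 2.19 ± 0.59, adjusted p = 0.00107). Both later values were above both early ones, and 62.5% and 64.3% of the RNA was new. Brd1a, whose mammalian counterpart is a scaffold of acetyltransferase complexes, rose from 1.44 and 4.00 RPM to 12.1 and 14.6 RPM (log2 change 2.57 ± 0.53, adjusted p = 9.54e-06), with NTRs of 53.7% and 63.9%.

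Brd3a, another BET gene and the brd gene with the most reads at 1 hpf, was at 484 and 276 RPM and then at 831 and 506 RPM (log2 change 0.98 ± 0.64, adjusted p = 0.25) with NTRs of 17.3% and 15.6%. DESeq2 called 4 brd genes higher, among them brd3a (adjusted p = 0.048) and brd1b (adjusted p = 0.027).

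Of the 17 smarc genes, which encode SWI/SNF and ISWI subunits and related ATPases, 1 rose and 4 fell. Smarcd3b, an accessory SWI/SNF subunit, rose from 4.42 and 3.91 RPM to 20.6 and 17.9 RPM (log2 change 2.36 ± 0.50, adjusted p = 1.76e-05), with NTRs of 50.4% and 57.3%. It alone kept its call without the library type term. Smarcad1a, an ATPase gene, fell from 309 and 253 RPM to 36.1 and 63.6 RPM (log2 change -2.39 ± 0.55, adjusted p = 0.000119). The core subunit gene smarcb1a fell from 173 and 95.8 RPM to 43.8 and 35.8 RPM (log2 change -1.55 ± 0.49, adjusted p = 0.00718), although 37.0% and 35.7% of the remaining RNA was new. Smarcc1b fell from 58.9 and 148 RPM to 37.4 and 36.8 RPM (log2 change -1.18 ± 0.47, adjusted p = 0.04), and smarcc2 from 4.86 and 6.17 RPM to 1.03 and 2.61 RPM (log2 change -1.51 ± 0.54, adjusted p = 0.0202). With DESeq2 the adjusted p of smarcc1b was 0.0688 and that of smarcc2 0.272.

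The SWI/SNF genes that fell each had a related gene with more reads at 4.8 hpf that did not pass the threshold. Smarcb1b stood at 143 and 84.3 RPM and then at 165 and 119 RPM, and smarcc1a at 1066 and 150 RPM and then at 1141 and 329 RPM. The ATPase genes smarca4a (799 and 418 RPM, then 1235 and 762 RPM) and smarca5 (683 and 617 RPM, then 710 and 725 RPM) had NTRs of 11.6% to 12.2%. No new RNA was estimated for smarca2, another SWI/SNF ATPase gene, whose NTR was 0% in all 4 libraries at 48.3 to 103 RPM.

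None of the 10 chd genes that could be tested passed the threshold with edgeR, and 0 had an unadjusted p under 0.05, while DESeq2 called 2 higher and 0 lower. Chd7, an ATPase gene whose loss causes CHARGE syndrome in humans, had the most reads of the family and, at 4.8 hpf, of all members. It stood at 1085 and 533 RPM and then at 1762 and 1134 RPM, with a log2 change of 1.05 ± 0.75 (adjusted p = 0.29, and 0.0451 with DESeq2) and NTRs of 15.5% and 15.9%. Among the 8 chd genes with enough reads for an NTR, the highest was that of chd2, 38.3% and 38.2%, at 42.9 to 89.1 RPM. Chd4a, an ATPase of the NuRD complex, was at 921 and 353 RPM and then at 587 and 502 RPM, lower in the polyA+ and higher in the ribo-depleted libraries.

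Genes with symbols that differ only in a last a or b, called copies here, were compared in new RNA. Pairs were formed by symbol alone, and a pair so formed need not come from the same ancestral gene. Of 24 a and b pairs among the members, 18 had an NTR for both copies, and in 15 of these the order of the copies was the same in both library types. The mean NTR of the 4.8 hpf libraries differed by 0.07 to 62.9 percentage points within a pair, with a median of 14.2, and by at least 10 points in 14 pairs. The NTRs of the members were themselves widely spread, with quartiles of 4.10% and 22.8% in the polyA+ library. Differences between unrelated genes were not computed, so these counts do not show that copies differ more or less than other genes.

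The 5 pairs with the widest gap all had the higher NTR in the a copy. Brd2a had an NTR of 62.5% with polyA+ selection and 64.3% with ribo-depletion, and brd2b 0.57% and 0.38%. The conversions behind these values showed the same contrast. Wilson intervals of T-to-C rates, here and elsewhere, treat each covered T base as independent and cover counting error only. T-to-C changes were read at 5.54% (95% Wilson interval 5.39% to 5.70%) of the brd2a T bases covered in the polyA+ library and at 4.33% (4.23% to 4.43%) in the ribo-depleted library. For brd2b the rates were 0.182% (0.113% to 0.291%) and 0.104% (0.0757% to 0.144%), against 0.165% (0.0944% to 0.288%) and 0.0636% (0.0470% to 0.0859%) at 1 hpf. Brd2b stood at 52.0 and 93.7 RPM and then at 61.6 and 70.1 RPM, a log2 change of 0.06 ± 0.46.

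In the kdm2b pair the a copy had an NTR of 59.8% and 64.9% and the b copy 8.42% and 14.0%. In the kat5 pair, the TIP60 acetyltransferase genes, the a copy had 45.2% and 43.8% and the b copy 8.38% and 9.39%. Kat5a was the rarer copy, at 6.29 and 22.0 RPM and then at 14.6 and 8.925 RPM, where kat5b stood at 150 and 116 RPM and then at 114 and 90.3 RPM.

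In the smarcb1 pair the a copy had 37.0% and 35.7% and the b copy 5.76% and 5.02%. Here the copy with more new RNA was the one that fell. New smarcb1a RNA amounted to 16.2 and 12.8 RPM at 4.8 hpf, while its stored RNA was lower by 2.65 and 2.06 on the log2 scale. In the kat6 pair, matched by symbol alone, the a gene had 35.5% and 22.7% and the b gene 6.17% and 5.12%. Kat6a went from 87.2 and 75.4 RPM to 151 and 103 RPM and kat6b from 109 and 62.8 RPM to 36.9 and 35.8 RPM, neither past the threshold (adjusted p = 0.23 and 0.076). Among the pairs with a smaller gap, kdm5b, kmt2c, kmt2b, kmt5a, kdm7a and chd4 had the higher NTR in the b copy in both library types. Estimated counts were whole numbers, within 1e-06, in all libraries for 56 of the 113 genes, brd2a and kdm2ba among them, and the others had fractional counts, as arise where reads that match several genes are shared out.

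**Figure D4:**
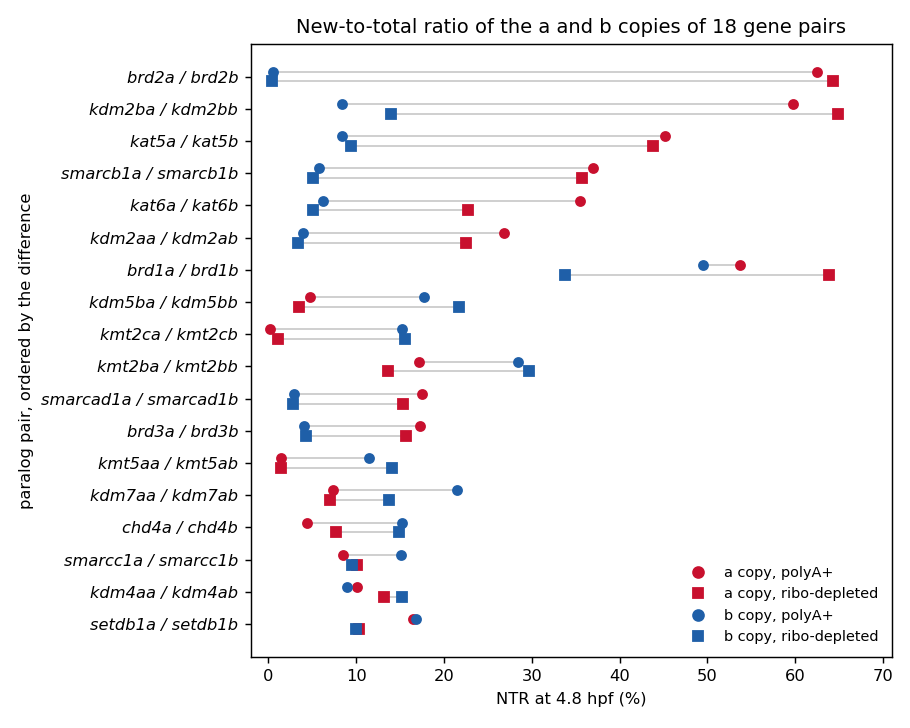
NTR at 4.8 hpf (percent) of the a copy (red) and the b copy (blue) of the 18 pairs with at least 100 reads for both copies in both libraries, with circles for polyA+ and squares for ribo-depleted. Pairs are ordered by the difference of the mean NTR, from 62.9 points for brd2 at the top to 0.07 points for setdb1 at the bottom.

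Stored RNA was compared between the stages for members with at least 100 reads in the 1 hpf libraries, as a description with no test. The median log2 ratio of stored RPM was -0.14 in the polyA+ (82 genes) and -0.33 in the ribo-depleted libraries (100 genes), though it was 0.12 for polyA+ when scaled to the stored reads and 0.0043 for ribo-depleted with TMM. Over all genes the medians were -0.46 and -0.69, lower than those of the members on each of these scales. Of the 82 members that had enough reads in each 1 hpf library, stored RNA was lower in both library types for 35, higher in both for 24 and in opposite directions for 23. These joint counts were not made over all genes. Within the polyA+ libraries it was lower for 48 of 82 members and 5443 of 8418 genes. In the ribo-depleted libraries it was lower for 60 of 100 members and 8625 of 11491 genes. Stored RNA was lower by more than 2-fold in both types for 14 of the 82, or 17.1%, against 26.1% of all genes (11 members with TMM and 10 when scaled to stored reads, all among these 14).

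Those 14 genes came from 7 of the families. The largest differences were in dnmt1 (log2 ratio -3.85 in polyA+ and -2.15 in ribo-depleted), setdb1a (-3.19 and -2.55), smarcad1a (-3.37 and -2.23), smarcb1a (-2.65 and -2.06) and hdac8.1 (-2.01 and -2.04). The 9 others were setd4, kat14, kdm4ab, hdac3, kmt5c, kat8, kdm4c, kdm7ab and kmt2ba, with ratios of -1.90 to -1.04. They differed in new RNA as well. The NTR was below 5% in both libraries for dnmt1, hdac8.1, setd4 and kdm4c, and at least 27% in both for smarcb1a and kat8. Of the 14, 8 were among the 10 members that fell in total reads.

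**Figure D5:**
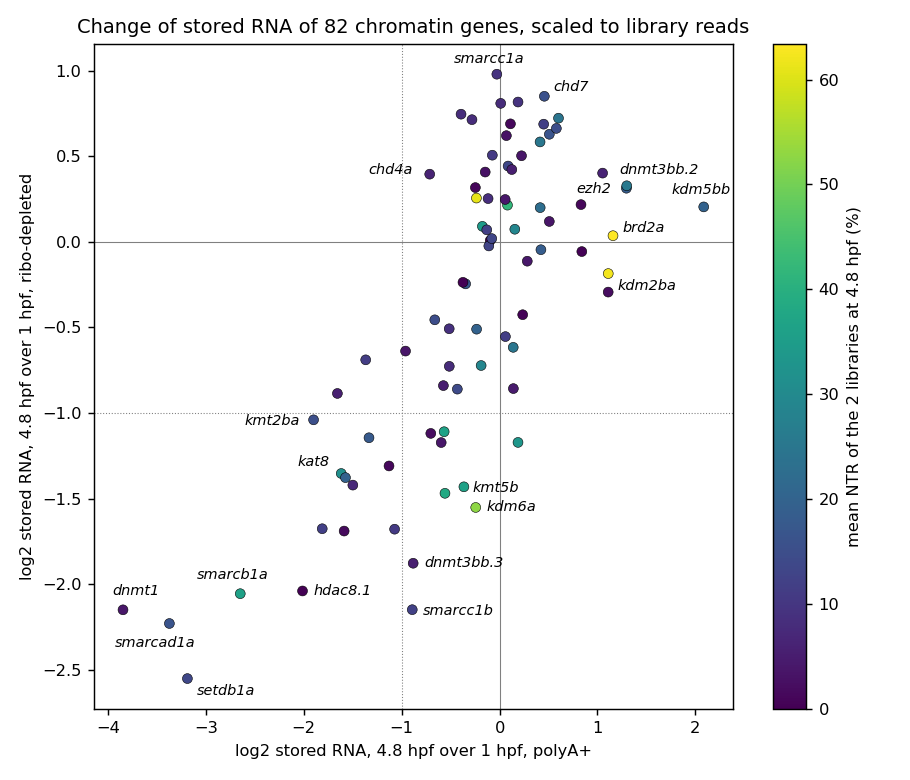
Log2 ratio of stored RNA at 4.8 hpf over 1 hpf in the polyA+ (x axis) and the ribo-depleted libraries (y axis), scaled to library reads, for the 82 members that had 100 or more reads in both libraries of 1 hpf, coloured by the mean NTR at 4.8 hpf. Dotted lines mark a 2-fold lower level. The 14 genes below both lines include dnmt1, setdb1a, smarcad1a, smarcb1a and hdac8.1 at the lower left.

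At the other end, the RNA estimated as stored took a larger share of the reads at 4.8 hpf than at 1 hpf for some genes. In the polyA+ libraries this was largest for kdm5bb (log2 ratio 2.08), ezh2 (1.30), dnmt3bb.2 (1.30), brd2a (1.16), kdm2ba (1.11) and kdm6al (1.11), where the ribo-depleted ratios were 0.20, 0.33, 0.31, 0.04, -0.19 and -0.29. The ratio of polyA+ to ribo-depleted RPM of these genes moved with it. Both are built from the same reads, so this is no separate observation. The ratio was lowest of all at 1 hpf for kdm5bb (-2.09 on the log2 scale), and at 4.8 hpf it was -0.19 there. Of the 82 members with at least 100 reads in all libraries, 18 had a ratio below -1 at 1 hpf and 4 at 4.8 hpf, and 12 and 5 had a ratio above 1. The lower end moved in the same way over all genes that averaged 100 reads or more at a stage. Their lower quartile was -1.20 at 1 hpf and -0.46 at 4.8 hpf, against -1.07 and -0.32 over such members. The upper quartiles were 0.38 and 0.37 over all genes and 0.52 and 0.33 over members. The part of poly(A) tail length in these ratios was not tested.

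The new RNA of the members came from many genes. In both libraries brd2a and chd7 contributed most, brd2a with 335 and 199.7 RPM and chd7 with 273 and 180.4 RPM of new RNA. The 11 first genes made up 52.4% of the members' new RNA with polyA+ selection and the 13 first 52.0% with ribo-depletion. Chd7, smarca4a and hdac1 were also the first by stored RNA in the polyA+ library, while brd2a was only at rank 26 and 39 by stored RNA. Of the 12 members that rose, 9 had enough reads for an NTR, and the median of their mean NTRs was 53.9%, with a range of 15.4% to 63.4%. For the 9 of the 10 members that fell it was 12.0% (0.13% to 36.4%) and for the 72 others 9.31%.

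The 21 members with an NTR below 5% in both 4.8 hpf libraries were brd2b, brd3b, brd8, chd1l, chd6, dnmt1, dnmt3bb.1, hdac8, hdac8.1, hdac10, kdm2ab, kdm4b, kdm4c, kdm5ba, kdm6al, kmt2ca, kmt5aa, setd3, setd4, smarca2 and smarcad1b. They came from 8 of the 11 prefixes. No tet gene and only 1 ezh gene had enough reads to be counted, and none of the 8 kat genes that had was among them. Only dnmt1, hdac8.1 and setd4 of these fell in total reads. The other 18 did not pass the threshold, and their RNA at 4.8 hpf was estimated as nearly all stored.

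At 1 hpf an NTR of 5% or more was read for 3 of the 100 members that had enough reads in the ribo-depleted library, against 7.09% of all genes there, and for 0 of 82 members in the polyA+ library, against 0.558% of all genes. The 3 genes were hdac11 (12.2%), setd2 (7.17%) and kdm5bb (5.98%), and in the polyA+ library of 1 hpf their NTRs were 0%, 0.03% and 0.40%. The conversions showed the same difference. For setd2, 0.757% of the T bases read as C in the ribo-depleted library (95% Wilson interval 0.727% to 0.789%), against 0.136% (0.112% to 0.166%) in the polyA+ library. At 4.8 hpf the rates were 1.00% (0.968% to 1.04%) and 0.486% (0.439% to 0.537%), and the NTRs of setd2 13.3% and 3.49%. For hdac11 the ribo-depleted rate was 0.799% (0.692% to 0.922%) at 1 hpf and 1.11% (0.933% to 1.33%) at 4.8 hpf, and the polyA+ rates were 0.110% (0.0428% to 0.282%) and 0.103% (0.0350% to 0.302%). The signal of these genes was thus already above that of the polyA+ library before the later stage, and its source was not tested. For kdm5bb the rate was higher at 4.8 hpf in both library types, from 0.519% (0.480% to 0.561%) to 1.52% (1.46% to 1.59%) in the ribo-depleted and from 0.189% (0.106% to 0.338%) to 1.64% (1.51% to 1.79%) in the polyA+ libraries.

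Partner genes that the name rule does not reach, other subunits and enzymes of the same complexes, were read from 8 lists of 156 names. Of these, 147 were in the table and 143 could be tested, of which 6 were higher, or 4.20%, against 18.3% of all genes, and 14 lower, or 9.79%, against 14.4%. Their median NTR was 13.1% with polyA+ selection and 12.3% with ribo-depletion, close to that of the members. In the Polycomb repressive complex 1 list 7 of 16 genes were lower and none higher with edgeR, or 43.8% lower against 14.4% of all genes, with no test of the list. At an unadjusted p under 0.05 0 were higher, DESeq2 called 5 lower and 0 higher, and without the library type term 1 was lower. These were pcgf1, bmi1b, phc2b, pcgf6, cbx7b, cbx8a and cbx8b, of which bmi1b went from 145 and 89.6 RPM to 26.6 and 14.1 RPM (log2 change -2.40 ± 0.49, adjusted p = 7.48e-06). Of the Polycomb repressive complex 2 list, rbb4l was higher and rbbp4 and suz12b were lower. Rbbp4, a histone-binding protein shared by several complexes, went from 538 and 337 RPM to 122 and 114 RPM (log2 change -1.70 ± 0.58, adjusted p = 0.0139) while 67.1% and 52.8% of its RNA was new.

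The DNA methylation list had the highest median NTR, 40.0% and 38.2% over 7 genes. In it tdg.1, a glycosylase gene of the pathway that removes oxidised methylcytosine, rose from 1.44 and 1.55 RPM to 24.1 and 26.6 RPM (log2 change 4.25 ± 0.55, adjusted p = 2.43e-13) with NTRs of 67.2% and 69.7%, and mbd4 fell from 78.2 and 15.5 RPM to 9.01 and 4.00 RPM (log2 change -2.40 ± 0.48, adjusted p = 5.04e-06). Hells, an ATPase required for DNA methylation in mice and listed with the remodellers, fell from 105 and 266 RPM to 31.9 and 52.1 RPM (log2 change -1.89 ± 0.50, adjusted p = 0.00103), and 39.8% and 26.9% of the rest was new. In the NuRD, Sin3 and CoREST list mbd3b and sap130b were higher and mbd2 lower. None of the 22 acetylation and bromodomain partners and none of the 15 sirtuin and arginine methylation genes passed the threshold with edgeR and TMM or with DESeq2, with 2 and 1 of them at an unadjusted edgeR p under 0.05, and 1 of 22 partners of H3 lysine 4 and lysine 9 methylation did, suv39h1a, which was lower. In the remodeller list srcap and bptf were higher and hells and baz1a lower with edgeR, while DESeq2 called 7 higher and 2 lower.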

How the data were processed

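Total RNA of injected embryos was sequenced as polyA+ libraries (NextSeq, single-end) and ribo-depleted libraries (NovaSeq, paired-end). The authors used cutadapt for trimming, STAR for alignment to GRCz11 and GRAND-SLAM for estimating new RNA. The deposited table, made by the authors, gives per gene and library the estimated count of reads, not normalized, the NTR as a fraction from 0 to 1, the coverage of T bases, the conversions and the gene length. Libraries were identified by stage and instrument. A gene without an entry was taken as 0 reads, and NTRs were read for genes with at least 100 reads. Counts were rounded and tested in R 4.3.3 by edgeR 4.0.16 (TMM, quasi-likelihood test, filterByExpr, Benjamini-Hochberg adjustment over 16315 genes, threshold 0.05), with stage and library type as terms. The test was tried on simulated counts. Standard errors are the log2 change divided by the square root of F. Stored levels below 3 reads were set to 3 reads. Alternatives were DESeq2 1.42.0, library totals, other filters, no library type term, leaving out each library, other read minimums and NTR thresholds, and other scalings. Named genes were, per family, that with the most reads at 1 hpf and that with the highest NTR, the 10 largest rises and falls among the called, and the 5 widest paralog pairs. Other genes were named after their values were seen. The members, lists and rules were chosen with earlier results of these data known. Reference gene tables were on another build, so no coordinates or sequences are given. A single result is not reported here.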

Additional observations from a re-analysis of the deposited data

Results flagged for a closer look

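For 6 members with at least 50 reads in every library, total reads moved by at least 0.5 on the log2 scale in opposite directions in the 2 library types. The difference was not tested because each type has 1 library per stage, and such genes were not counted over all genes. These changes are against library totals. With TMM the ribo-depleted changes of setd1ba (-0.61), kdm6a (-0.67) and smarcad1b (-0.75) and the polyA+ change of kdm8 (0.505) would fall short of 0.5 in size. The log2 change in polyA+ minus that in ribo-depleted was 2.52 for kat5a, 1.73 for kdm6a, 1.72 for kdm8, 1.71 for smarcad1b and 1.42 for setd1ba, all higher in the polyA+ and lower in the ribo-depleted libraries at 4.8 hpf. For chd4a it was -1.16, lower in the polyA+ and higher in the ribo-depleted libraries. Kat5a, kdm6a and setd1ba had NTRs of 45.2% and 43.8%, 59.6% and 45.9%, and 35.0% and 32.2%, while chd4a (4.34% and 7.65%) and smarcad1b (2.93% and 2.82%) were read as mostly stored.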

How the results depend on the processing

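The counts of members called in total reads rest on the library type term. Without it 1 member was higher (smarcd3b) and 0 were lower, and with each library left out in turn, where that term cannot be fitted, 0 to 1 were higher and 0 to 0 lower. With library totals in place of TMM 16 members were lower, all 10 among them, against 2511 of the 16315 genes tested. Of the 12 higher calls 9 were kept, against 2487 higher calls over all genes. DESeq2 called 14 higher and 9 lower, 8 and 8 of them shared with edgeR, and fitting without a filter gave 10 and 11. Over all genes DESeq2 called 2269 higher and 1478 lower, and the fit without a filter 3379 and 2333. Including BRD8 and SMARCA4, which are written in capitals in the table, left the counts at 12 and 10, an alternative chosen after seeing the data. Members with an NTR below 5% in both libraries numbered 11 with at least 500 reads and 38 at a threshold of 10%, and those above 50% in place of 65% numbered 5. The median stored ratio changed sign to 0.12 in polyA+ when scaled to stored reads and to 0.0043 in ribo-depleted with TMM, so the direction of the median member is not fixed, while the count of members down by more than 2-fold was 11 and 10 under these scalings, both added after seeing the data. No paired analysis was possible because the deposited table ties no library to a replicate number, so the stages were compared within library type only, through the library type term. With 1 library per stage and type, NTRs of genes near 100 reads and changes of genes at a few RPM are the least certain.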
